A study of Mus musculus with 6 samples.

Results

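Oligodendrocyte progenitor cells (OPCs) were compared with the epiblast stem cells (EpiSCs) they had been derived from, 2 cell types that were both grown with FGF2. The comparison used 3 of the 6 arrays of a mouse differentiation series, namely 1 array of EpiSCs and 2 of OPCs, taken at passages 3 and 11. All cells were of strain 129. EpiSCs were kept in Knockout DMEM with 20% KSR, a defined serum replacement, and 10 ng/ml FGF2. To make OPCs, EpiSCs were first turned into patterned neural rosettes over 5 days with SB431542, Dorsomorphin, Noggin, retinoic acid (RA) and SHH, and cells of the dissociated rosettes were then grown in N2B27 medium with FGF2, PDGF-AA and SHH. The FGF2 dose of the OPC cultures is not given in the sources used here. Medium, PDGF-AA and SHH changed together with the cell type, so their parts cannot be told apart. The remaining arrays, 1 of rosettes and 2 of oligodendrocytes, helped to choose the transcript read for each gene, and the oligodendrocyte pair also entered the estimate of the spread. The number of arrays limits the precision throughout.

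EpiSCs are cultures of the postimplantation epiblast, the embryonic tissue that gives rise to all tissues of the body, and they stand for the primed state of pluripotency. FGF and Activin/Nodal signalling keep them in that state, whereas in the oligodendrocyte lineage FGF2 and PDGF-AA act as mitogens that hold progenitors dividing and unmyelinated. The same growth factor is therefore part of the self-renewal medium of both cell types. OPCs are the glial cells of the central nervous system that carry PDGFRα and NG2, receive synapses from axons and later make myelin.

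Every value below is a log2 signal of a gene on 1 array, normalised by RMA, so a difference of 1 is a 2-fold change. Levels of different genes are not compared, since each gene has its own probes. A difference is the mean of the 2 OPC arrays minus the EpiSC array, given with its standard error (SE). A gene was called, that is, said to rise or fall, when the p-value of the linear model (limma), adjusted by Benjamini-Hochberg over all 19938 genes, was under 0.05. EpiSCs had 1 array, so the model took the spread from the OPC and the oligodendrocyte pairs and assumed it for EpiSCs. A gene can therefore have a large SE because its oligodendrocyte arrays differ, even where its OPC arrays agree. Fgfr1, for example, read 12.20 and 12.17 in OPCs but 12.12 and 11.06 in oligodendrocytes at passages 3 and 11. Nothing in the labels says that the arrays of a pair came from separate derivations. The p-values therefore cover no more than the spread among these arrays. That spread holds technical variation and any effect of passage, since each pair sets passage 3 against passage 11.

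The labels held on a short set of markers picked by name. In the longer lists below, 24 of 34 OPC markers were called higher and 18 of 26 core and primed pluripotency genes lower. Of 8 EpiSC markers all 8 were called lower in OPCs, by −3.09 to −5.95, and of 8 OPC markers all 8 were called higher, by 1.60 to 6.47. Pou5f1, the POU factor at the centre of pluripotency, read 13.02 in EpiSCs and 7.48 and 7.76 in OPCs at passages 3 and 11. Olig2, the basic helix-loop-helix factor that specifies the oligodendrocyte lineage, read 8.19 in EpiSCs and 13.07 and 13.11 in OPCs. Neither gene's OPC values came near its EpiSC value.

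Across the genome 812 genes were called higher in OPCs, 4.07% of those tested, and 585 were called lower, 2.93%. These shares are the ones to set beside the counts by list below. A second count used no estimate of the spread. At both passages 262 genes (1.31%) stood at least 4-fold above the EpiSC array and 160 (0.802%) at least 4-fold below it, and 253 and 144 of these were also called. The median difference of all genes was −0.05. The EpiSC array stood at least 2-fold away from the OPC arrays at 1881 genes at passage 3 and at 2023 at passage 11, while the OPC arrays differed from each other by that much at 125 genes. Fewer genes were called with 1 OPC array left out. Such a fit had 1 array for each cell type compared. Its spread came from the oligodendrocyte pair alone, with 1 residual degree of freedom. A call lost there need not mean that the OPC arrays disagreed. Without the passage 3 array 345 genes were called higher and 197 lower, and without the passage 11 array 306 and 164.

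**Figure D1:**
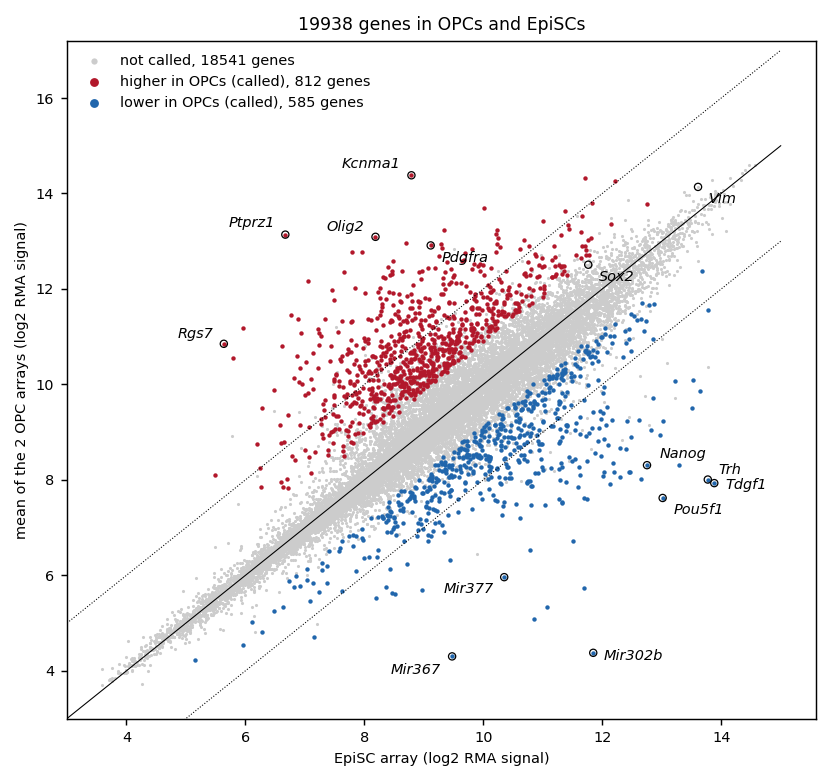
Each point is 1 of the 19938 genes, with its log2 RMA signal on the EpiSC array on the horizontal axis and the mean of the 2 OPC arrays on the vertical axis. Red points were called higher in OPCs (812), blue points lower (585), grey points not called, the solid line marks equal values and the dotted lines a 4-fold difference. Ptprz1 and Kcnma1 lie farthest above the line and Mir302b farthest below it, while Sox2 and Vim lie close to it.

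The largest measured decrease was that of a microRNA gene. The genes Mir302b, Mir302c, Mir302a, Mir302d and Mir367 lie side by side within 580 bases of chromosome 3 (GRCm38.p6, chr3:127545228-127545807, + strand), and all 5 fell, with differences from −5.17 to −7.47. Members of the miR-302 family are the microRNAs for which pluripotent cells of the epiblast are best known, and a microRNA recognises its targets chiefly through its seed, bases 2 to 8 of the mature strand. Mature sequences from RefSeq (GRCm38.p6) could be matched to 270 of the 300 microRNA genes measured. Those below come from the Mir302 cluster, share a seed with it (miR-363), had the largest decrease in a region of chromosome 12 described below (miR-377) or had the largest increases (miR-181b and miR-9), with the seed in capitals and U for uracil.
mmu-miR-302b-3p: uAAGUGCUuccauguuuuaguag
mmu-miR-302c-3p: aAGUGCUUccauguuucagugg
mmu-miR-302d-3p: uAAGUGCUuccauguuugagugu
mmu-miR-367-3p: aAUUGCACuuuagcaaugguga
mmu-miR-363-3p: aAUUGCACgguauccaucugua
mmu-miR-377-3p: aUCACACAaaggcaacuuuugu
mmu-miR-181b-5p: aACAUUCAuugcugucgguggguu
mmu-miR-9-5p: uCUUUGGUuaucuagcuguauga

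The strands of miR-302b and miR-302d share the seed AAGUGCU. The RefSeq entry of miR-302c begins with that same run, so its bases 2 to 8 read AGUGCUU. miR-367, from the same cluster, and miR-363, from a cluster on chromosome X, share the seed AUUGCAC. The arrays read RNA that contains the hairpin and did not measure mature strands.

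Mir302b read 11.85 in EpiSCs against 4.32 and 4.44 in OPCs at passages 3 and 11, a decrease of 177-fold (difference −7.47 ± 0.17 SE, adjusted p = 0.00114). The OPC values of this cluster lie near the low end of the arrays, whose lowest value was 3.26, so its folds are best read as lower bounds and their order is uncertain. Mir302c read 11.70 against 5.75 and 5.72, and Mir302d 11.08 against 5.35 and 5.32. Mir302a fell from 10.86 to 4.94 and 5.23. For Mir367 the EpiSC value was 9.47 and the OPC values were 4.21 and 4.39. The OPC arrays agreed to within 0.29 for each of these hairpins. Mir363, which shares the seed of Mir367, fell from 8.46 to 5.33 and 5.93 (−2.83 ± 0.28, adjusted p = 0.00756). Its cluster neighbours on the X chromosome, Mir19b-2, Mir106a, Mir20b and Mir92-2, all read lower in OPCs too, by −1.22, −0.85, −0.51 and −0.33, and of these Mir19b-2 was called.

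A second group of microRNA genes that read lower in OPCs lies on chromosome 12 between Dlk1 and Dio3, an imprinted domain whose maternal chromosome makes the long noncoding RNAs Meg3 and Rian together with a long series of microRNAs. This group was chosen after its values were seen. All 40 measured microRNA genes of the domain had a difference below 0, with a median of −1.02 and a range from −4.39 to −0.02, and 15 of them were called lower and none higher (at an unadjusted p under 0.05, 30 lower and 0 higher). Of the 255 measured microRNA genes outside this domain and the Mir302 cluster, 134 had a difference below 0, the median was −0.01, and 2 were called lower. Mir377, shown above, read 10.35 in EpiSCs and 5.92 and 6.00 in OPCs (−4.39 ± 0.47, adjusted p = 0.00955). Mir300 fell from 8.52 to 5.71 and 5.49, and Mir543 from 7.86 to 6.03 and 6.14. The smaller called decreases ran down to −0.90 for Mir299a. Mir382, at 9.90 against 6.26 and 6.64, missed the threshold (adjusted p = 0.0687), as did Mir380 at 7.21 against 5.11 and 4.86 (adjusted p = 0.0959).

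The long RNAs of the domain ran the same way. Rian fell from 9.31 in EpiSCs to 6.96 and 7.14 in OPCs (−2.26 ± 0.36, adjusted p = 0.027). Meg3 read 11.74 in EpiSCs and 9.26 and 9.34 in OPCs, a difference of −2.44 ± 0.59 with an adjusted p of 0.0804. The protein-coding genes expressed from the paternal chromosome differed less. Dlk1, which codes for a Notch-like ligand, read 10.36 against 10.04 and 9.72, and Rtl1 differed by −0.16 and Dio3 by −0.08, none of them called. Of the called hairpins of the domain, Mir377 and Mir300 were called without either OPC array in turn. The other 13 and Rian were not, with adjusted p from 0.0591 to 0.247 without the passage 3 array and from 0.0523 to 0.244 without the passage 11 array. Mir19b-2 and Mir568 were not called without either array (adjusted p = 0.146 and 0.205 for Mir19b-2, 0.0603 and 0.0811 for Mir568).

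Only 3 of the 300 microRNA genes were called higher. Mir181b-1 rose from 6.87 in EpiSCs to 10.41 and 10.77 in OPCs (3.72 ± 0.22, adjusted p = 0.00246). Mir9-1, a hairpin of the neural microRNA miR-9, rose from 8.59 to 11.72 and 11.07 (2.81 ± 0.40, adjusted p = 0.0204). Mir568 rose from 6.24 to 8.14 and 8.34. Of all 300 microRNA genes, 230 lay below the median of all gene values in both cell types. Such genes had less room for a decrease, although Mir300 and Mir363, both among them, fell.

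**Figure D2:**
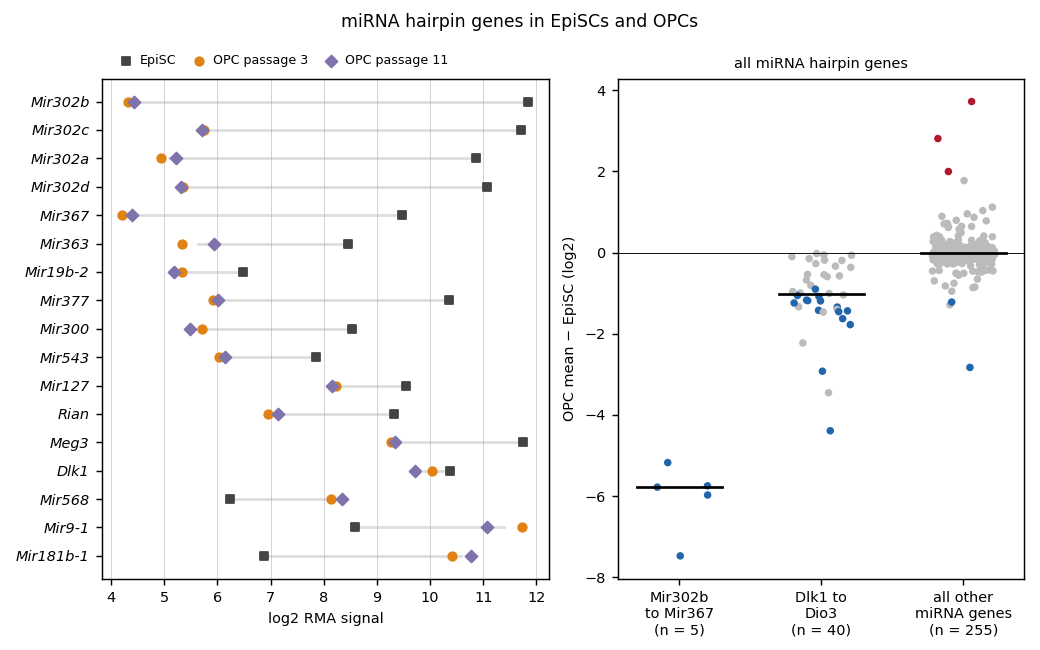
The left panel gives the log2 RMA signal of microRNA hairpin genes and of 3 long transcripts of the Dlk1 to Dio3 domain on the EpiSC array (square) and the OPC arrays at passage 3 (circle) and passage 11 (diamond). The right panel gives the difference between the OPC mean and EpiSCs for each of the 300 microRNA genes, red when called higher and blue when called lower, with the median as a bar. The 5 genes of the Mir302 cluster lie below −5 and all 40 genes between Dlk1 and Dio3 lie below 0.

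Most genes of the pluripotency programme fell, but not all. Of 26 core and primed pluripotency genes measured, 18 were called lower and none higher (20 lower and 1 higher at an unadjusted p under 0.05), and the median difference was −2.49. Tdgf1, the Nodal co-receptor Cripto, read 13.88 in EpiSCs and dropped by 6.02 and 5.88 in OPCs at passages 3 and 11, a decrease of 61.9-fold. Pou5f1 fell 42.1-fold (−5.39 ± 0.19, adjusted p = 0.00152), and Utf1, a chromatin factor of pluripotent cells, fell from 13.30 to 8.18 and 8.46. Nanog fell from 12.75 to 8.18 and 8.44 (−4.44 ± 0.26, adjusted p = 0.00246). Otx2 and Zic2, which mark the primed epiblast and the anterior neural plate, fell by 4.21 and 4.30 on the log2 scale.

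Of the 8 that were not called, 5 read lower in OPCs, namely Rif1 at −1.43, Fgf4 at −0.87, Zfp42 at −0.46, Esrrb at −0.40 and Dppa4 at −0.38. The other 3 read higher, and each is a transcription factor that neural progenitors use as well. Sox2, the partner of Pou5f1 in pluripotent cells and a factor of the neural tube, read 11.76 in EpiSCs and 12.56 and 12.45 in OPCs (0.74 ± 0.18, adjusted p = 0.0754). Pou3f1 (Oct6) read 10.20 against 10.42 and 11.15, and Gbx2 9.28 against 9.32 and 9.80, and neither was called. The list is not confined to the primed state, since Zfp42, Esrrb and Gbx2 are better known from naive pluripotency. Among 19 POU, SoxB and SoxC factors, 4 were called higher and 2 lower. The 4 were Pou3f4 (8.59 against 11.96 and 11.84, 3.32 ± 0.27, adjusted p = 0.00455), Pou3f3 at 0.96, Sox4 at 1.37 and Sox11 at 1.02. The lower pair was Pou5f1 and Sox15. Sox3 and Sox1 differed by 0.18 and 0.36 and were not called. The calls of Pou3f3, Sox4, Sox11 and Sox15 were lost without either OPC array (adjusted p from 0.107 to 0.224 without passage 3 and from 0.0757 to 0.216 without passage 11).

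Pou5f1 and Sox2 bind together to a composite of an octamer and a Sox site, and the promoter of Nanog is the textbook case. The window from 250 bases before to 50 bases after the start of Nanog (RefSeq, GRCm38.p6, chr6:122707239-122707538, + strand, 1 of 2 entries for the gene) is shown because Nanog and Pou5f1 were called lower while Sox2 was not called. Capitals mark the octamer core TTTGCAT and the Sox element ACAATG, both on the + strand and 1 base apart.
Nanog promoter: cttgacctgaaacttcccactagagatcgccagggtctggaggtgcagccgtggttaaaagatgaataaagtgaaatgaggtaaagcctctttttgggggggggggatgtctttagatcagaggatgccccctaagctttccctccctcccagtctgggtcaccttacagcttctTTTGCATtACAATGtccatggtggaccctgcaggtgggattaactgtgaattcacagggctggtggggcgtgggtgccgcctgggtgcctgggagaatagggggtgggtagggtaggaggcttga

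Across windows of the same length, searched on both strands, TTTGCAT was found in 4.82% of the 15614 tested genes with a RefSeq promoter, in 5.37% of the 428 called lower and in 4.37% of the 618 called higher. ACAATG was found in 11.8%, 11.4% and 11.5%. Windows that hold both, at any spacing, made up 0.993% of all genes, 1.64% of those called lower (7 of 428) and 0.971% of those called higher (6 of 618), and these shares were not tested.

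Nodal signalling maintains the primed state and induces the primitive streak. Of 22 measured genes of the pathway and the streak, 10 were called lower and none higher (15 and 0 at an unadjusted p under 0.05). The ligand Nodal fell from 10.99 to 8.22 and 8.31 (−2.73 ± 0.17, adjusted p = 0.00289). Its feedback inhibitors fell further, Lefty2 from 11.51 to 6.78 and 6.68 and Lefty1 from 11.74 to 7.50 and 7.71. Foxh1, the Smad partner of the pathway, fell by 3.29, and the streak factor Eomes fell by 3.81. Smad2, the signal transducer itself, read 10.82 in EpiSCs and 10.97 and 10.84 in OPCs. Among 15 genes of naive pluripotency 3 were called lower, with a median of −0.47. Nr5a2 fell from 11.00 to 8.17 and 8.25 and Nr0b1 from 9.15 to 6.86 and 7.02, while Klf2 differed by −0.12 and 10 of the 15 lay below the all-gene median in both cell types.

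EpiSCs are an epithelium, and 18 of 35 measured genes of epithelial junctions and keratins were called lower in OPCs and none higher (26 and 0 at an unadjusted p under 0.05). Cdh1 (E-cadherin) fell from 12.18 to 8.29 and 8.44 (−3.81 ± 0.18, adjusted p = 0.00201). The tight junction gene Cldn6 fell from 12.29 to 8.04 and 8.06, the adhesion molecule Epcam from 11.69 to 7.54 and 7.69, and the protease inhibitor Spint1 by 2.43. Perp fell by 2.80, a call that was lost without either OPC array (adjusted p = 0.0966 and 0.12). Esrp1, the splicing factor that maintains epithelial isoforms, fell from 9.58 to 7.27 and 7.41 (−2.24 ± 0.17, adjusted p = 0.00412).

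In place of E-cadherin, OPCs carried several neural and mesenchymal cadherins. In the list of cadherin switch genes 8 of 18 were called higher and none lower (10 and 0 at an unadjusted p under 0.05), with a median of 1.60. Cdh20 rose from 7.72 to 10.66 and 10.83, and Cdh13, Cdh11, Cdh10 and Cdh4 rose by 2.12 to 2.40. Cdh2 (N-cadherin) read 10.76 against 12.69 and 12.45 (1.81 ± 0.29, adjusted p = 0.0275), although its call was lost without either OPC array (adjusted p = 0.0982 and 0.0722). The repressor of E-cadherin Zeb1 rose from 10.00 to 12.39 and 12.61 (2.50 ± 0.19, adjusted p = 0.00393). Snai1, another such repressor, differed by −0.37, and the intermediate filament gene Vim was high in both cell types, at 13.61 against 14.19 and 14.09. Among 33 splicing and RNA-binding regulators 4 rose (12.1%) and 4 fell (12.1%). Nova1, a neuronal splicing factor, rose from 9.68 to 12.56 and 12.63, and Rbpms2 fell from 12.42 to 9.38 and 9.08.

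**Figure D3:**
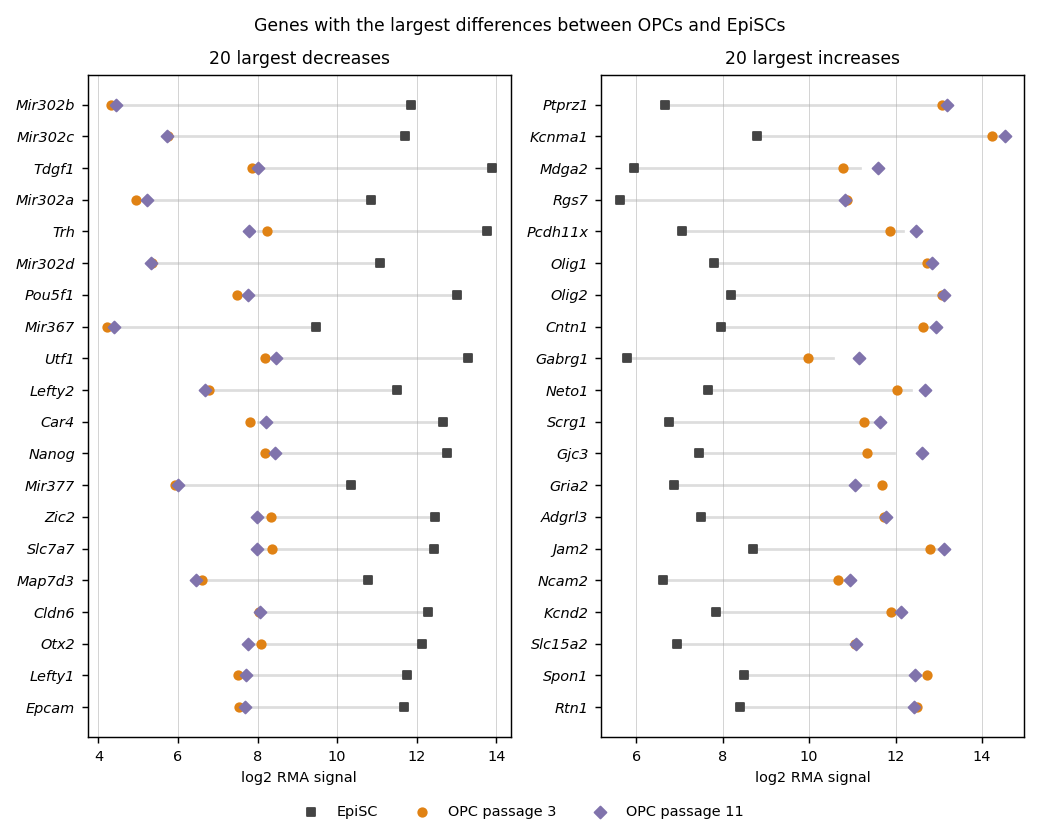
Log2 RMA signal of the 20 genes with the largest decreases (left) and increases (right) among called genes that have a proper name, on the EpiSC array (square) and on the OPC arrays at passage 3 (circle) and passage 11 (diamond). The OPC symbols lie closer to each other than to the EpiSC square in every row, which the choice of called genes with large differences favours. The widest gap between passages is that of Gjc3, at 11.34 and 12.60.

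The genes that define OPCs were among those that rose most. Of 34 measured OPC markers 24 were called higher and none lower (28 and 0 at an unadjusted p under 0.05), 18 of them at least 4-fold at both passages, with a median of 2.38. Ptprz1, a receptor phosphatase carrying chondroitin sulfate, had the largest increase of any gene, from 6.67 in EpiSCs to 13.08 and 13.19 in OPCs (88.4-fold, 6.47 ± 0.20, adjusted p = 0.00114). Olig1 rose from 7.80 to 12.72 and 12.83 and Olig2 rose by 4.91 ± 0.22. Pdgfra, the receptor of PDGF-AA, rose from 9.12 to 12.87 and 12.95 (3.80 ± 0.29, adjusted p = 0.00393). Cspg4, which codes for NG2, rose less, from 9.12 to 10.54 and 10.90 (1.60 ± 0.22, adjusted p = 0.019), and Sox10, the factor that later drives myelin genes, from 8.94 to 10.65 and 10.81 (1.79 ± 0.18). Without the passage 11 array neither of these 2 was called (adjusted p = 0.0868 for Cspg4 and 0.051 for Sox10).

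The lineage's transcription factors showed the same division. Of 31 measured, 18 were called higher and none lower (22 and 1 at an unadjusted p under 0.05). The nuclear factor I genes of the switch from neurogenesis to gliogenesis rose strongly, Nfib from 8.36 to 12.46 and 12.00 and Nfia from 8.92 to 12.29 and 12.42. Sox9, a factor of glial progenitors, rose from 9.32 to 12.24 and 12.22, and Nkx2-2 rose from 7.99 to 11.20 and 10.73. Id2, which holds back differentiation, rose by 2.72. Id4 and Hes1 read 9.04 and 10.28 in EpiSCs and differed by 0.41 and −0.10.

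Most listed genes of the mature cell did not follow. Of 28 measured myelin and mature oligodendrocyte genes 2 were called higher and 1 lower, 7.14% and 3.57%, and the median was 0.07. In this list 14 genes read higher and 14 lower, and 17 lay below the all-gene median in both cell types. Bcas1 read 8.24 in EpiSCs and 9.95 and 10.18 in OPCs and was not called (adjusted p = 0.0834). The glial gap junction gene Gjc3, counted with the OPC markers, rose from 7.46 to 11.34 and 12.60. Mbp, myelin basic protein, read 8.98 in EpiSCs and 8.66 and 8.77 in OPCs. Plekhb1 rose from 8.45 to 10.70 and 10.54 and Cnp from 9.44 to 10.95 and 10.96, the latter a call lost without either OPC array (adjusted p = 0.145 and 0.156). Car2, carbonic anhydrase II, went the other way, from 12.86 in EpiSCs to 9.81 and 9.64 in OPCs (−3.13 ± 0.41, adjusted p = 0.0155). The membrane-bound enzyme of the same family, Car4, was among the 20 largest decreases, at 12.66 against 7.82 and 8.22.

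The extracellular matrix of OPCs is rich in lecticans and other proteoglycans. In that list 13 of 35 measured genes were called higher (37.1%) and 2 lower (5.71%). The lectican Bcan rose from 8.44 to 12.20 and 12.37, and Ncan from 9.28 to 13.00 and 12.87. Timp4, a metalloproteinase inhibitor, rose by 3.85 and the matricellular gene Sparcl1 by 3.52. Tnc (tenascin C) read 9.51 in EpiSCs and 13.22 and 12.45 in OPCs, a difference of 3.32 that was not called (SE 1.28, adjusted p = 0.232). Laminins, integrins and collagens held 2 called higher of 43, 4.65%, with Itgb8 the larger (8.26 against 11.31 and 11.61). Their median was 0.00.

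OPCs receive synapses, and many receptor and channel genes rose, beside 4.07% of all genes. Glutamate receptors and their auxiliary subunits had 11 of 31 called higher (35.5%) and none lower (16 and 0 at an unadjusted p under 0.05). The kainate receptor partner Neto1 rose from 7.65 to 12.04 and 12.67 (4.70 ± 0.29, adjusted p = 0.00261). Gria2, the AMPA receptor subunit that limits calcium entry, rose from 6.88 to 11.68 and 11.06, and the metabotropic receptor Grm5 rose from 8.79 to 11.84 and 11.96. Of 19 receptors for GABA, glycine and acetylcholine 4 were called higher and none lower (6 and 1 at an unadjusted p under 0.05). Those 4 were Gabrg1 at 4.76, Glrb at 3.54, Chrna4 at 2.71 and Chrm3 at 2.06.

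The list of voltage-gated channels also held inward rectifiers and a channel-binding protein. Of its 36 genes 9 were called higher (25.0%) and 2 lower (5.56%). Kcnma1, the large-conductance calcium-activated potassium channel, rose from 8.79 in EpiSCs to 14.23 and 14.53 in OPCs, 48.2-fold (5.59 ± 0.23, adjusted p = 0.00185). Kcnd2 and Kcnd3, the subunits of A-type potassium currents, rose from 7.84 and 8.44 by 4.18 and 2.92, and Kcnip3, which binds such channels, by 2.95. Kcnj16, an inward rectifier, rose from 7.87 to 10.40 and 11.28. Kcnj3, another inward rectifier, fell from 11.59 to 7.78 and 7.93 (−3.73 ± 0.20, adjusted p = 0.00218). Rgs7, a brake on G protein signalling, rose from 5.64 to 10.87 and 10.84.

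Of 48 genes of axon guidance, adhesion and synaptic partners, 19 were called higher and none lower (27 and 4 at an unadjusted p under 0.05), and the median was 1.14. Cntn1 (contactin) rose from 7.96 to 12.63 and 12.94, Ncam2 from 6.62 to 10.66 and 10.94, and Ncam1 from 9.70 to 12.95 and 12.56. Beyond the list, adhesion genes made up several of the 20 largest increases. They included Mdga2 (5.96 against 10.77 and 11.59), the protocadherin Pcdh11x (7.06 against 11.86 and 12.46), the latrophilin Adgrl3 (7.50 against 11.74 and 11.78) and the junctional molecule Jam2 (8.71 against 12.79 and 13.13).

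The growth factor that both media share acts through receptor tyrosine kinases and the ERK cascade, which induces its own inhibitors of the Sprouty and dual-specificity phosphatase families. Fgfr1, the receptor with the widest role in both cell types, read 12.08 in EpiSCs and 12.20 and 12.17 in OPCs, and the 95% interval of the difference ran from −0.98 to 1.20. Fgfr2 differed by 0.70 and Fgfr3 by 1.91, the latter with 9.15 in EpiSCs and 11.64 and 10.48 in OPCs (adjusted p = 0.13). Of 41 FGF receptors, ligands and co-receptors 5 were called higher (12.2%) and 3 lower (7.32%), with a median of 0.06. The ligand of the epiblast Fgf5 fell from 11.54 to 8.39 and 8.50 (−3.09 ± 0.17, adjusted p = 0.00218). Fgf15 fell by 1.82 and the glypican Gpc3 by 3.17. Sdc3, a heparan sulfate carrier of neural cells, rose from 8.95 to 12.19 and 12.21, the decoy receptor Fgfrl1 from 9.85 to 11.96 and 11.75, and Fgf12, Sulf2 and Flrt3 by 2.01, 1.24 and 1.07. The calls of Sulf2 and Flrt3 were lost without either OPC array (adjusted p from 0.108 to 0.175), and that of Fgf15 without passage 11 (0.0528). Fgf2 itself read 7.70 against 7.69 and 7.67.

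Among 28 feedback and target genes of FGF and ERK, 5 were called higher (17.9%) and 1 lower, and the median was 0.19. Spry1 rose from 10.09 to 12.12 and 12.05 (SE 0.23, adjusted p = 0.0114) and Spry2 from 10.42 to 11.45 and 11.49 (1.05 ± 0.17, adjusted p = 0.029). Etv1 rose by 1.16, Phlda1 by 2.29 and Myc by 2.59, and the trophoblast and germ cell factor Tfap2c fell by 1.15. Other ETS factors of the pathway and its phosphatase were not called. Etv4 read 9.50 in EpiSCs and 10.13 and 10.18 in OPCs, Etv5 read 11.70 in EpiSCs and 12.09 and 12.20 in OPCs, and Dusp6 read 11.79 and 12.66 and 12.98 (1.03 ± 0.27, adjusted p = 0.0944). The calls of Spry2, Etv1 and Tfap2c were lost without either OPC array (adjusted p = 0.161, 0.0875 and 0.131 without passage 3, 0.189, 0.221 and 0.156 without passage 11), and those of Myc and Phlda1 without passage 11 (0.0573 and 0.0507).

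Among other receptor kinases, genes changed in both directions. Of 36 genes 8 were called higher (22.2%), among them Pdgfra, Egfr (9.12 against 11.72 and 11.41), Erbb4 (7.92 against 10.57 and 10.22) and Epha5 (7.65 against 9.82 and 10.07). The 2 called lower (5.56%) were Ephb4 at −1.32 and Epha2, which read 10.99 against 8.93 and 8.56. Neither was called without either OPC array (adjusted p = 0.0539 and 0.0893 for Epha2, 0.105 and 0.153 for Ephb4). Erbb2 differed by 0.41.

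SHH was added to the OPC medium and not to that of the EpiSCs. Of 21 genes of the pathway 1 was called higher and 1 lower, 4.76% each, and the median was 0.00. The higher gene was Nkx2-2 and the lower one Mycn. Ptch1, the receptor that the pathway induces, read 11.28 in EpiSCs and 12.53 and 11.92 in OPCs (0.95 ± 0.36, adjusted p = 0.227). Gli1, a target in most tissues, differed by −0.33 and Hhip by 1.69, the latter at 7.38 against 9.73 and 8.40.

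**Figure D4:**
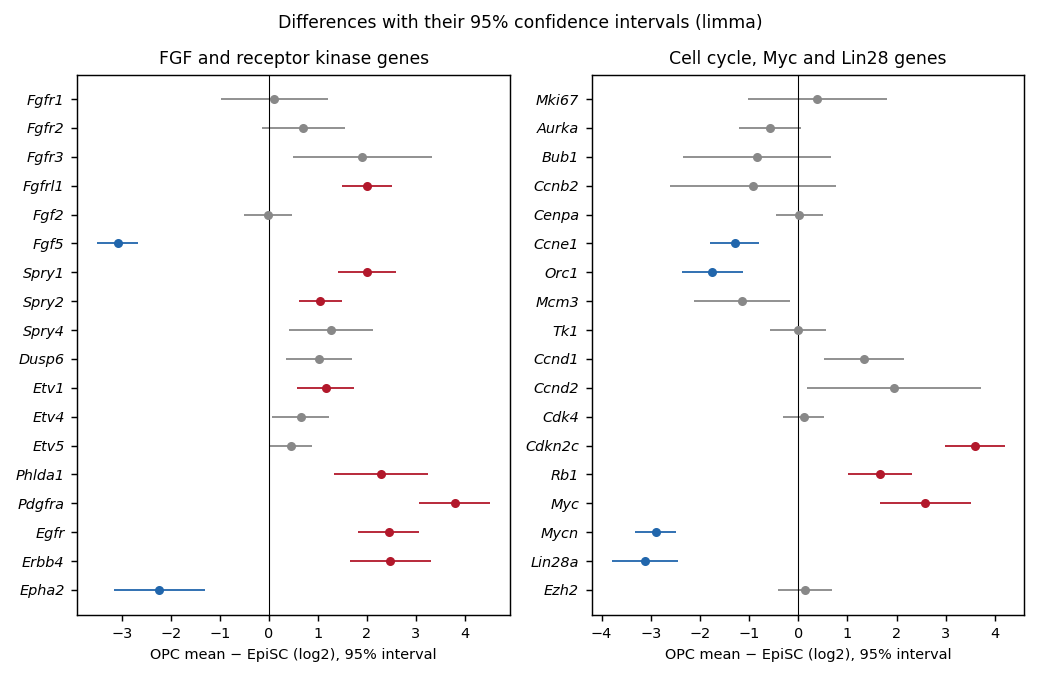
Difference between the OPC mean and the EpiSC array (log2) with its unadjusted 95% confidence interval from limma, for genes of FGF and receptor kinase signalling (left) and of the cell cycle, Myc and Lin28 (right). Red marks genes called higher, blue genes called lower and grey genes not called, and the intervals of Fgfr1, Fgf2, Mki67, Cdk4 and Ezh2 include 0.

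Mitotic genes differed little between these cell types, as did most genes. None of 37 G2/M genes was called in either direction by limma (2 higher and 1 lower at an unadjusted p under 0.05). All 37 lay within 2-fold, beside 18036 of all 19938 genes, and the median was −0.13. The missing calls do not show likeness, because the oligodendrocyte pair enters the spread. Kif23 read 11.56 and 11.62 in OPCs but 10.91 and 9.31 in oligodendrocytes at passages 3 and 11. Its SE was 0.62, against a median SE of 0.20 over all genes. The proliferation antigen Mki67 read 12.19 in EpiSCs and 12.69 and 12.47 in OPCs. Genes of DNA replication read somewhat lower. Of 51, 45 had a difference below 0 and the median was −0.63, with 3 called lower (5.88%) and none higher (16 and 0 at an unadjusted p under 0.05). The 3 were Orc1 (10.73 against 9.09 and 8.87), Ccne1 (12.66 against 11.47 and 11.26) and Slbp at −0.89. Each lost its call without either OPC array (adjusted p = 0.0568, 0.0895 and 0.255 without passage 3, 0.0828, 0.144 and 0.226 without passage 11).

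Of 33 CDK inhibitors, D cyclins, p53 targets and related regulators 4 were called higher (12.1%) and 2 lower (6.06%), with a median of 0.17. Mycn fell from 12.06 in EpiSCs to 9.17 and 9.15 in OPCs (−2.90 ± 0.17, adjusted p = 0.00235), while Myc rose from 9.30 to 11.82 and 11.95 (2.59 ± 0.36, adjusted p = 0.0193). The CDK inhibitor Cdkn2c (p18INK4c) rose from 7.23 to 10.67 and 10.98 (3.60 ± 0.24, adjusted p = 0.0031). Rb1 rose by 1.66, a call lost without either OPC array (adjusted p = 0.0543 and 0.105). The cyclins Ccnd1 and Ccnd2 read 12.15 and 11.57 in EpiSCs and 1.33 and 1.95 higher in OPCs, and neither was called (adjusted p = 0.0794 and 0.2). Cdk4 differed by 0.11.

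Lin28a, an RNA-binding protein that blocks let-7 maturation, fell together with genes of the same list. Of 14 heterochronic genes 7 were called lower and none higher (9 and 1 at an unadjusted p under 0.05), and the median was −1.29. Lin28a read 11.92 in EpiSCs and 8.70 and 8.90 in OPCs (−3.12 ± 0.27, adjusted p = 0.00492). Trim71, Nr6a1 and Arid3b fell by 1.97, 2.26 and 2.42. Igf2bp1 fell from 12.30 to 9.34 and 8.01, a wide gap between passages, and was not called without passage 11 (adjusted p = 0.0868). Hmga2, by contrast, read 11.49 against 11.89 and 11.42.

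Of 44 regulators of DNA methylation and chromatin 10 were called lower (22.7%) and 4 higher (9.09%). The de novo methyltransferase Dnmt3b fell from 11.88 to 8.55 and 8.60 (−3.31 ± 0.18, adjusted p = 0.00218), and Dnmt3a and Dnmt3l fell by 1.36 and 1.76, while the maintenance enzyme Dnmt1 differed by −0.15. Tet1, which oxidises methylcytosine, fell from 12.14 to 10.92 and 11.11, while Tet2 read 9.10 against 10.34 and 10.22 (adjusted p = 0.0793). Within the Polycomb group Phc1 fell by 1.90 and Bmi1 rose by 1.86, and the catalytic subunit Ezh2 read 12.77 against 12.80 and 13.01. Smarca2, an ATPase of the BAF complexes, rose from 9.23 to 10.83 and 11.15, while Smarcc1 differed by −0.10. Sall4 fell from 12.40 to 8.62 and 8.69. The calls of Tet1, Bmi1, Dnmt3a and Dnmt3l were lost without either OPC array (adjusted p = 0.188, 0.0775, 0.0732 and 0.0521 without passage 3, 0.135, 0.144, 0.12 and 0.051 without passage 11), and those of Phc1 and Smarca2 without passage 11 (0.0548 and 0.0581).

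Of 32 imprinted genes 3 were called higher and 5 lower. Phlda2, a growth-limiting gene expressed from the maternal allele, fell from 12.20 to 8.06 and 8.25 (−4.04 ± 0.20, adjusted p = 0.00213). Zdbf2 fell by 2.49 and Asb4 by 2.34, the former not called without passage 11 (adjusted p = 0.078). Among 24 germline and testis genes that DNA methylation keeps silent, 21 lay below the all-gene median in both cell types, and Tdrkh was the 1 called (8.75 against 10.38 and 10.56; adjusted p without passage 11 was 0.0544).

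Metabolic genes separated by pathway. Of 31 genes of glycolysis and the hypoxia response 8 were called lower (25.8%) and 1 higher, with a median of −0.62. The lactate exporter Slc16a3 fell from 12.62 to 9.29 and 9.22 (−3.36 ± 0.20, adjusted p = 0.00247), Pdk1, which keeps pyruvate out of the mitochondrion, from 10.74 to 7.98 and 7.98, and Bnip3 by 2.51. The glucose transporter Slc2a1 fell from 13.78 to 11.80 and 11.32 and was not called without passage 11 (adjusted p = 0.0546). Slc2a3, another glucose transporter, read 13.23 in EpiSCs and 10.40 and 9.03 in OPCs (adjusted p = 0.137). Aldoc, the brain aldolase, was the gene that rose, from 11.01 to 13.75 and 13.12. Respiratory chain subunits differed little, as did most genes. Of 37 subunits 36 lay within 2-fold, beside 18036 of all 19938 genes, and the median was 0.08.

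None of 34 genes of sterol and fatty acid synthesis was called by limma (9 higher and 0 lower at an unadjusted p under 0.05), although 29 read higher in OPCs. The list's median stood at 0.52 on the passage 3 array and at 0.14 on the other. In serine, one-carbon and amino acid metabolism 5 of 29 genes were called lower and 1 higher. The arginine transporter Slc7a3 fell from 12.81 to 9.85 and 8.26, and Cth, which makes cysteine, from 12.02 to 10.15 and 9.49. Glul, glutamine synthetase, rose from 11.71 to 12.94 and 12.85. The one-carbon genes Mthfd1, Mthfd1l and Shmt1 fell by 1.27, 1.38 and 1.03. Without either OPC array the calls of Glul and these 3 were lost (adjusted p from 0.0607 to 0.173 without passage 3, from 0.131 to 0.171 without passage 11), and that of Cth without passage 11 (0.0767).

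RA had been given to the rosettes and was not part of the OPC medium. Of 21 genes of its pathway 5 were called lower and none higher (7 and 0 at an unadjusted p under 0.05). The RA-degrading enzyme Cyp26a1 fell from 10.31 to 7.25 and 7.30 (−3.04 ± 0.17, adjusted p = 0.00235) and the receptor gene Rxrg from 10.23 to 7.59 and 7.54. Dhrs3 and Crabp2 fell by 1.86 and 1.69, calls lost without either OPC array (adjusted p = 0.0782 and 0.0809 without passage 3, 0.0672 and 0.0616 without passage 11). RA also induces Hox genes along the body axis. Of 32 Hox, Meis and Pbx genes 3 were called higher, Hoxa2 (7.70 against 10.48 and 10.11), Hoxa5 (7.52 against 9.15 and 9.52) and Meis1 (8.70 against 11.65 and 11.06). Meis1 was not called without passage 3 (adjusted p = 0.0563) or Hoxa5 without passage 11 (0.0648). Hoxb2 and Hoxb4 differed by 1.22 and 1.09, and 20 of the 32 lay below the all-gene median in both cell types.

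Notch genes, through which neighbouring progenitors restrain each other, had 4 of 25 called higher and 1 lower. The glycosyltransferase Lfng rose from 9.46 to 12.52 and 11.77, the ligands Dner and Dll1 from 8.36 and 8.59 by 3.43 and 1.78, and the effector Hey1 by 2.06 (adjusted p without passage 3 was 0.0526). Hes1 was not called. Of 40 Wnt genes 5 rose and 6 fell. Wnt8a, a ligand of the primitive streak, fell from 11.74 to 8.36 and 8.44 (−3.34 ± 0.17, adjusted p = 0.00213), the inhibitor Dkk1 by 1.90 and the effector Lef1 by 1.95. Lgr5, the R-spondin receptor, rose from 8.63 to 10.93 and 10.94.

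Of 36 BMP genes 8 rose (22.2%) and 2 fell. Id2, a target of the pathway described above among the lineage factors, rose, as did the ligands Bmp7 and Gdf11 by 1.80 and 1.63 and the protease Bmp1 by 1.71. Follistatin, Fst, fell from 12.47 to 8.82 and 8.99 (−3.57 ± 0.47, adjusted p = 0.0165) and Smad7 fell by 1.58. The call of Bmp1 was lost without either OPC array (adjusted p = 0.0995 and 0.0957), that of Smad7 without passage 3 (0.0796), and those of Bmp7 and Gdf11 without passage 11 (0.0767 and 0.0737).

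Genes that mark other cell types were read in the same arrays, and the part of such cells in the differences was not tested. In bulk RNA, fewer cells of a type and less RNA per cell cannot be told apart. Among 25 neuron markers 7 were called higher and 2 lower, with a median of 0.20 that became −0.04 without passage 11. Dcx, a microtubule gene of migrating neuroblasts, rose from 7.79 to 11.47 and 11.20, and Map2 from 9.31 to 12.77 and 12.93. Elavl4, Syt1, Stmn3, Gap43 and Snap25 rose by 1.58 to 2.94. The second transcript of Stmn3 on the array differed by −0.28, opposite to the one used. Nefl and Isl1 fell by 2.50 and 1.20. Isl1 was not called without either OPC array (adjusted p = 0.198 and 0.122), Snap25 without passage 3 (0.0755) or Nefl without passage 11 (0.051). Stmn2 read 12.79 in EpiSCs and 10.48 and 7.82 in OPCs and was not called (adjusted p = 0.406). The transmitter genes Slc17a6, Slc32a1 and Gad2 differed by −0.21, −0.15 and −0.01. The summed linear signal of the 25 was 20896 in EpiSCs and 33682 and 32100 in OPCs.

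Astrocyte markers had 9 of 24 called higher and 2 lower, with a median of 1.19 and a summed linear signal of 25740 in EpiSCs against 64993 and 55211 in OPCs. Acsbg1 rose from 9.06 to 12.57 and 12.31 and Slc4a4 from 8.62 to 11.85 and 11.59. The 2 that fell were the connexin gene Gja1 (12.74 against 11.60 and 11.04) and Apoe (11.88 against 10.35 and 10.79). Gja1 was not called without passage 11 (adjusted p = 0.149), nor Apoe without passage 3 (0.173) or passage 11 (0.078). Of the markers of microglia and macrophages none of 14 was called by limma (0 higher and 4 lower at an unadjusted p under 0.05), and 10 lay below the all-gene median in both cell types. Endothelial and pericyte markers had 1 of 14 called lower, endoderm and trophoblast markers 1 of 19, and mesenchyme and fibroblast markers none of 17 (0 higher and 4 lower at an unadjusted p under 0.05). In the last list Acta2 and Tagln were above that median in every array, Acta2 at 11.08 against 12.81 and 11.66 and Tagln at 10.65 against 10.89 and 9.29. Of 16 markers of neural crest and Schwann cells 3 were called higher (18.8%) and 2 lower (12.5%). These markers share Sox10 and Gap43 with other lists. Ets1 was the third to rise, from 8.60 to 10.35 and 9.98 (adjusted p without passage 3 was 0.0872), and Foxd3, which EpiSCs also express, fell by 1.24 (adjusted p = 0.11 without passage 3 and 0.113 without passage 11).

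Radial glia and neuroepithelial genes, which mark the stage between the 2 cell types, had 7 of 30 called higher (23.3%) and 1 lower (3.33%). Fabp7 rose from 11.71 to 14.25 and 14.41, Ptn from 9.08 to 11.82 and 11.78, and Slc1a3, the glutamate transporter GLAST, from 10.76 to 12.92 and 12.90. Pax7 differed by −0.01.

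Of 28 genes of the interferon response and antigen presentation 3 were called lower (10.7%) and none higher (9 and 0 at an unadjusted p under 0.05). They were Ifitm1 (11.38 against 9.11 and 8.92), Bst2 (10.33 against 9.12 and 9.14) and Psmb10 (11.32 against 9.76 and 9.87), none of them called without either OPC array (adjusted p from 0.0825 to 0.131). B2m, the light chain of class I molecules, differed by 0.19. Xist, the RNA that coats the inactive X chromosome, read 12.32 in EpiSCs and 13.11 and 13.12 in OPCs, and the 4 Y-linked genes measured lay below the all-gene median in both cell types.

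**Figure D5:**
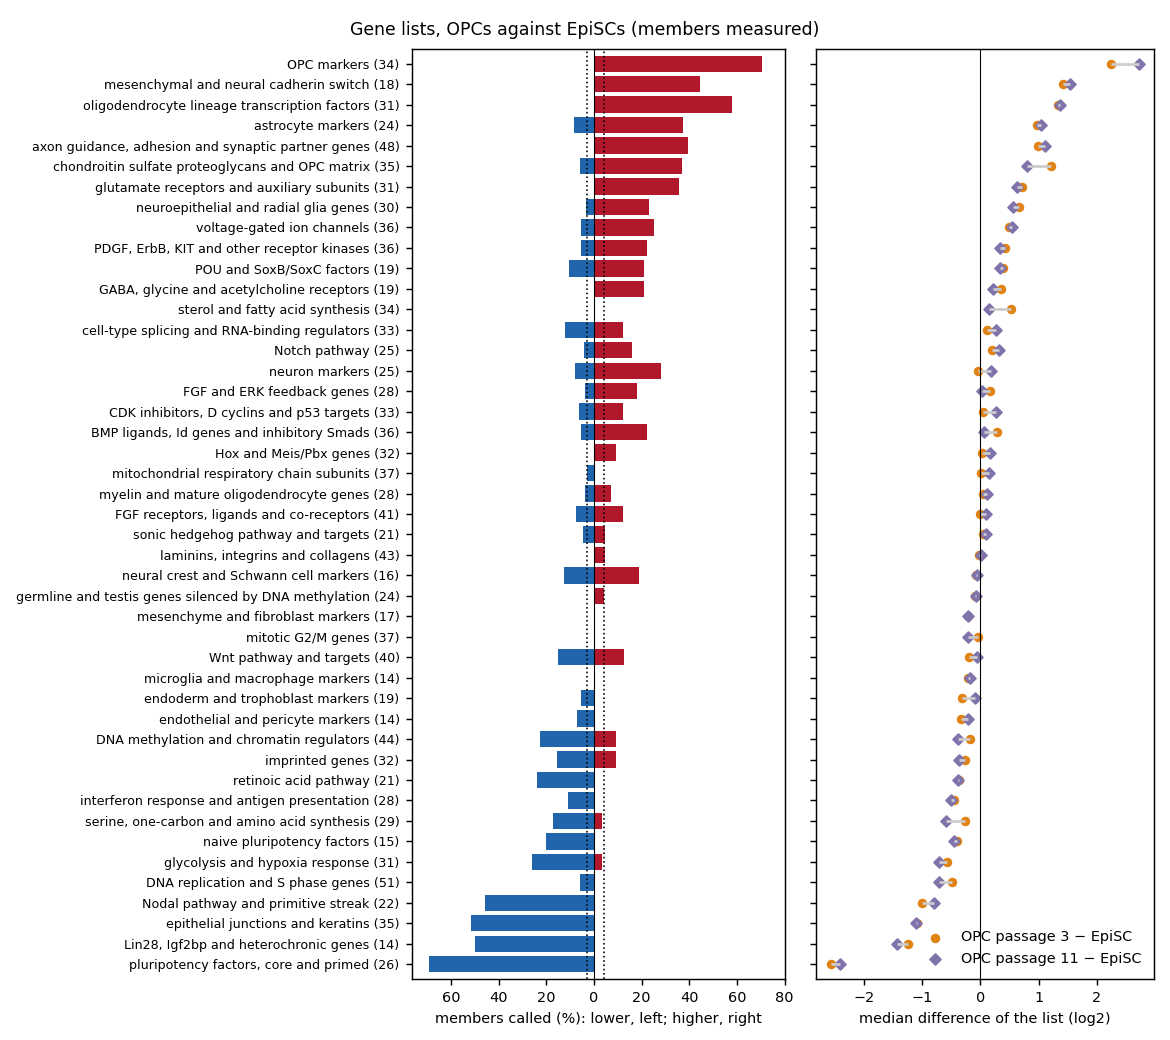
For each gene list with at least 10 measured members (their number in parentheses), the left panel gives the percentage of members called lower (blue, to the left) and higher (red, to the right) in OPCs, with dotted lines at 2.93% and 4.07%, the same over all genes. The right panel gives the list's median difference from the EpiSC array at passage 3 (circle) and passage 11 (diamond). OPC markers stand at the top with a median of 2.38 over both passages, pluripotency factors at the bottom with −2.49, and the G2/M genes near 0.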

How the data were processed

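The authors deposited log2 expression values of 35556 transcripts on 6 arrays of total RNA (150 ng per labelling). The submitters' processing notes name RMA and Affymetrix Expression Console, with no version or genome build; these steps are not given further in the sources used here. RMA subtracts background, makes the arrays' distributions equal and summarises probes, so a shift shared by most genes cannot be seen and low values are compressed. The array medians over genes ran from 8.98 to 9.04.

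Transcripts with a single gene symbol in the platform annotation (21789) were kept, 1621 with several symbols and 12146 with none were left out, and a gene with several transcripts was read from the transcript whose mean across the 6 arrays was highest, which gave 19938 genes. limma 3.58.1 (R 4.3.3) was fitted to all 6 arrays in 4 groups (2 residual and 3.32 prior degrees of freedom), two-sided, with Benjamini-Hochberg adjustment. On simulated data for this comparison over 19938 genes the fit called 1 of 67 genes changed by 1, 36 of 67 changed by 2 and 63 of 66 changed by 4 on the log2 scale, with 2 false calls. The simulated EpiSC array was given the spread of the OPC and oligodendrocyte pairs, and far fewer genes were changed than were called in the data. The false calls therefore do not cover a larger spread in EpiSCs.

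The comparison and the gene lists were chosen with earlier results of these data known, so counts by list are descriptions. Genes are named by a rule: the 20 largest called increases and decreases with a proper name, 58 genes fixed by name, up to 6 members with the largest and 2 with the smallest differences of each list, microRNA genes called or at least 4-fold apart at both passages, the 5 called genes with the largest gap between passages, and the 10 bright genes most alike. Other genes, and the groups by chromosomal region, were singled out after their values were seen. OPCs and oligodendrocytes share the passage numbers, which entered as a block in an alternative fit; EpiSCs have no passage number.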

Additional observations from a re-analysis of the deposited data

How the results depend on the processing

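The 812 higher and 585 lower calls ranged from 306 to 345 and from 164 to 197 when 1 OPC array was left out, and came to 2127 and 2027 when an oligodendrocyte array was left out or only the EpiSC and OPC arrays were fitted, which leaves 1 residual degree of freedom. With passage as a replicate block in the pairs they were 1259 and 1059, and with a test against a 2-fold minimum 156 and 104. Gene averaging, the filter on dim genes, median-centring and an intensity trend kept these counts within 1.5 times. Genes apart at both passages numbered 913 higher and 640 lower at 2-fold and 73 and 60 at 8-fold, while leaving out an OPC array gave 322 to 324 and 172 to 210 at 4-fold. Of 203 named genes called, 140 were called without either OPC array in turn. No called gene changed sign under these alternatives. Most of them kept the difference itself unchanged, so only gene averaging, centring and leaving out an OPC array could have changed a sign. Some list medians did change sign, among them those of SHH genes (−0.02 with averaged transcripts, −0.09 for bright genes, −0.01 after centring), FGF receptors (0.00 without passage 11) and laminins (0.02 for bright genes, 0.01 without passage 3). The median of neuron markers went from 0.20 to −0.04 without passage 11. With bright genes alone those of germline, neural crest and sex-chromosome genes went from −0.10, −0.07 and −0.13 to 0.27, 0.54 and 0.79, and the last was 0.02 without passage 3. Values near background bound how far a gene could fall.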

Other observations

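Several of the largest decreases belonged to none of the gene groups described above. Trh, the gene of thyrotropin-releasing hormone, fell from 13.77 in EpiSCs to 8.23 and 7.78 in OPCs at passages 3 and 11 (−5.77 ± 0.23, adjusted p = 0.00185 by limma), the second largest decrease of a protein-coding gene. The amino acid transporter gene Slc7a7 fell from 12.45 to 8.35 and 7.98, and Map7d3, a microtubule-associated gene, from 10.78 to 6.59 and 6.45. Among the increases outside the lists, the peptide transporter Slc15a2 rose from 6.94 to 11.07 and 11.09, the reticulon Rtn1 from 8.40 to 12.50 and 12.41 and the matrix protein Spon1 from 8.48 to 12.73 and 12.45.

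The called genes with the widest gap between the OPC arrays were Slc7a3, Chl1, Igf2bp1, Gjc3 and Gng3. Chl1, a neural adhesion gene, read 6.92 in EpiSCs, 11.03 in OPCs at passage 3 and 9.67 at passage 11. Gjc3, the gap junction gene of glia, went from 7.46 to 11.34 and 12.60. Gng3, a G protein subunit, read 11.73, 9.54 and 8.29. For these 3 the passage gap was between 1.25 and 1.36.

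Among the genes above the 90th percentile of mean signal, the 10 with the smallest differences included Kpna2 (13.11 in EpiSCs, 13.07 and 13.15 in OPCs), a nuclear import receptor, Dnm1l (12.62, 12.56 and 12.68), the GTPase of mitochondrial fission, and Bclaf1 (11.47, 11.34 and 11.60). The widest 95% interval of these 10 was that of Fdft1, squalene synthase, from −0.93 to 0.93. Of the cytoskeletal genes, Actb read 14.34, 14.45 and 14.43 and Tubb5 13.97, 13.86 and 13.62.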
